A study of Mus musculus with 10 samples.

Results

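The 10 genes described here encode the elastic fibre and its microfibrils, and their transcripts were measured by RNA-seq in the uterus of 5 HSD17B1TG and 5 WT mice. They were set by a list of symbols (*Eln*, *Fbn1*, *Fbn2*, *Mfap2*, *Mfap4*, *Mfap5*, *Fbln1*, *Fbln2*, *Fbln5* and *Lox*) with no threshold on a measured value, although the list was drawn up with earlier results of these data known. Each symbol matched 1 of the 29268 genes of the table, and all 10 passed the filter on low counts that left 16993 genes for testing. HSD17B1TG females carry a human *HSD17B1* cDNA under the CMV-enhanced chicken beta actin promoter, which drives expression in all tissues. HSD17B1 converts estrone to the more active estradiol. All animals were of the FVB/N background and 4 months old, the transgene was heterozygous, and WT mice carried none. HSD17B1TG females do not cycle according to the study, and its histology methods state random cycle phases for WT uteri without naming the phase of each sequenced mouse, so genotype and absence of cycling cannot be told apart. Each library came from 1 mouse and from uterine RNA, and the study's RNA methods do not name the part or layers of the uterus taken. The mice are called TG1 to TG5 and WT1 to WT5, numbers that name mice and pair none of them.

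Elastic fibres let a tissue recoil after stretch. They have a core of elastin that is crosslinked by lysyl oxidases and laid down on bundles of microfibrils. Fibrillins build the microfibrils, the microfibril-associated glycoproteins bind to them, and fibulins connect elastin, microfibrils and cells. In the uterus, elastic fibres lie between smooth muscle bundles and in vessel walls, and the fibrillin network also holds latent TGF-beta in the matrix.

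A library held 16544864 to 19451715 counts on genes in HSD17B1TG and 14817228 to 23271988 in WT. The members had between 176 counts (*Fbn2*) and 12472 counts (*Fbln1*) in a mouse, so none of them was near the limit of 3 counts, which is at most 0.202 CPM (counts scaled by the total of a library). Mitochondrial genes took 4.92% ± 2.56 (SD, n = 5) of counts in HSD17B1TG and 3.07% ± 0.322 in WT. The range was 1.94% to 7.57% in HSD17B1TG and 2.58% to 3.37% in WT. TG5 had the highest share and the fewest genes with counts, 20507, and the part of this in its member levels was not tested. The uterine genes *Hoxa10*, *Esr1* and *Pgr* were present in every mouse. The transgene is a human sequence and is not among the mouse genes counted, so it gives no check of the genotype labels. WT4 stood apart from the other WT mice in its cell type markers. Its mean over 11 smooth muscle markers was 10.05 on the log2 CPM scale, against 6.70 to 8.84 in the other WT mice, and its mean over 11 stromal markers was 6.79, against 7.29 to 8.11. TG1 stood apart from the other HSD17B1TG mice, with 10.56 for smooth muscle against 7.74 to 9.50, and 6.45 for 9 epithelial markers against 8.07 to 8.75. With all 10 mice, 354 genes were called lower and 367 higher in HSD17B1TG. Without WT4 these counts were 666 and 888, and without TG1 they were 575 and 763. They were 528 and 367 without TG3, and 145 and 100 without WT1. Without TG2, TG4, TG5, WT2, WT3 or WT5 only 27 to 78 genes were called lower and 38 to 83 higher. Calls of members are given with all mice, without WT4 and without TG1.

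Of the 10 members, 4 were lower in HSD17B1TG and 0 were higher (edgeR, with 0 higher also at an unadjusted p-value under 0.05 and with DESeq2). These were *Mfap5*, *Fbn1*, *Mfap4* and *Mfap2*, which are the main fibrillin of adult microfibrils and 3 proteins that associate with microfibrils. A gene was called when the adjusted p-value was under 0.05, the fold change over 2 and the mean FPKM over 1 in either group (edgeR quasi-likelihood test, Benjamini-Hochberg adjustment over the 16993 genes). Under that rule 2.08% of all genes tested were called lower and 2.16% higher, and DESeq2 called 3.07% and 4.17% of the genes it tested. The count of 4 was kept without TG1 or without WT4, fell to 2 (*Mfap2* and *Mfap5*) without TG3, and fell to 1 (*Mfap5*) without any 1 of the other 7 mice. Of the 10 members, 9 had a negative log2 fold change and the median of the 10 was -1.05, while over all genes tested 49.8% were negative and the median was 0.00. The 9 include *Fbn2* at -0.00446, which changed sign in some of the alternatives. An unadjusted p-value under 0.05 with a lower level was found for 4 members and for 11.4% of all genes. The groups did not overlap for 2 members, *Fbn1* and *Mfap5*, with every HSD17B1TG mouse below every WT mouse, as for 2.65% of all genes. The summed FPKM of the 10 genes were 303, 271, 228, 250.7 and 176 in TG1 to TG5 and 509.7, 519.6, 425, 360.0 and 578 in WT1 to WT5. FPKM, fragments per kilobase of gene length, allow levels to be compared between genes. In sum the members reached 246 ± 47.7 FPKM (SD, n = 5) in HSD17B1TG and 479 ± 86.0 FPKM in WT. The lowest WT sum, that of WT4, was above the highest HSD17B1TG sum, that of TG1. In RNA of uterine tissue with its cell types mixed, fewer cells of a type and less RNA per cell cannot be told apart.

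**Figure D1:**
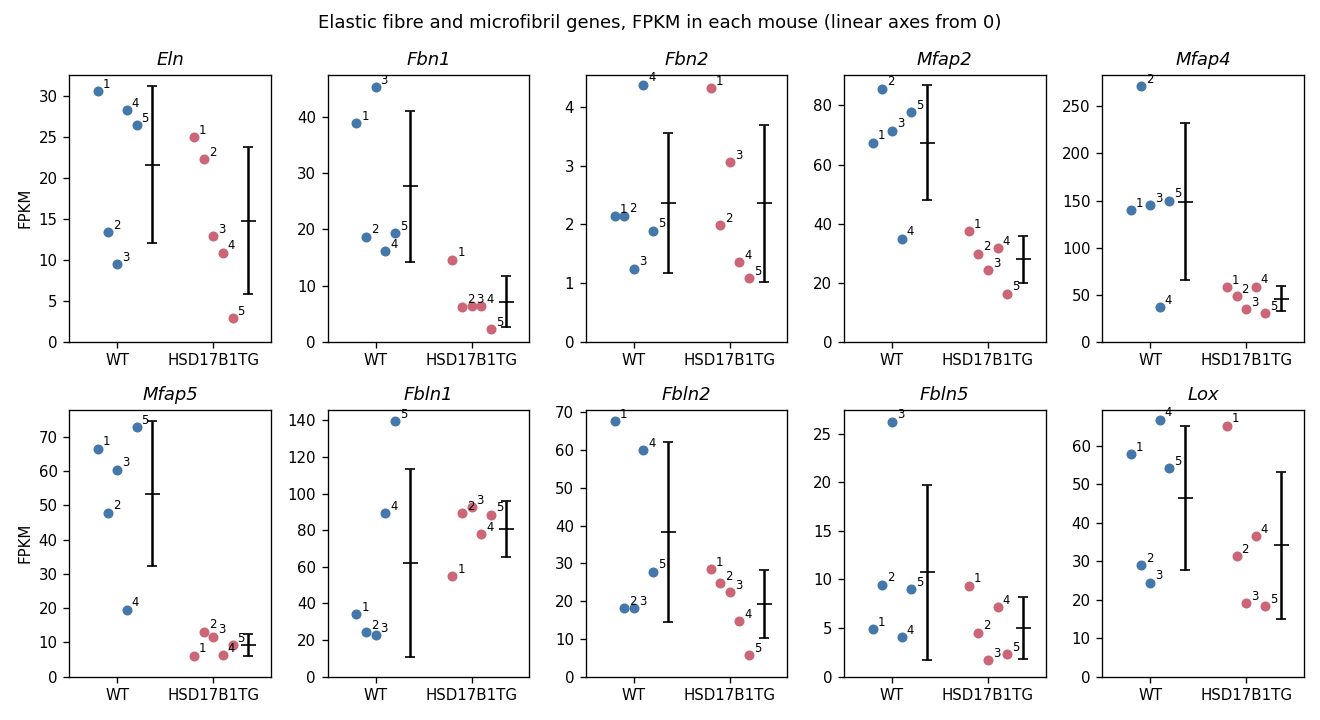
FPKM (vertical axes, linear from 0) of each of the 10 genes in the 5 WT mice (blue) and the 5 HSD17B1TG mice (red), numbered as in the text, with the group mean and SD as black bars. Every HSD17B1TG point lies below every WT point for *Fbn1* and *Mfap5*, while the groups overlap for the other genes.

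RefSeq (GRCm38.p6) promoter entries, from 250 bases before to 50 bases after a start site, were found for 5 members (*Fbn1*, *Mfap2*, *Fbln1*, *Fbln2* and *Fbln5*), with 8 entries in all. The 250 bases before the start are shown for a gene that was lower in HSD17B1TG (*Mfap2*, chr4:141010174-141010423, plus strand), for the member with a positive fold change (*Fbln1*, chr15:85205699-85205948, plus strand) and for an elastin-binding fibulin (*Fbln5*, chr12:101819120-101819369, minus strand). They are written 5′ to 3′ on the strand of the gene, and capitals mark the GC box GGGCGG or its reverse complement CCGCCC.
Mfap2: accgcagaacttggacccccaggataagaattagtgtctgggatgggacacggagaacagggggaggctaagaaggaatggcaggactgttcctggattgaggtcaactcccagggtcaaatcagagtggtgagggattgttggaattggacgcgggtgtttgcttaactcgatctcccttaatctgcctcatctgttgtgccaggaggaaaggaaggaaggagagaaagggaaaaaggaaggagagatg
Fbln1: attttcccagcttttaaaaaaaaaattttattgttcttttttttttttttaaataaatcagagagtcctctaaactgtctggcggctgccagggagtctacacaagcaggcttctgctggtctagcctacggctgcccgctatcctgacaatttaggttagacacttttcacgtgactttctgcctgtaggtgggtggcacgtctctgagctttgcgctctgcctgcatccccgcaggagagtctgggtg
Fbln5: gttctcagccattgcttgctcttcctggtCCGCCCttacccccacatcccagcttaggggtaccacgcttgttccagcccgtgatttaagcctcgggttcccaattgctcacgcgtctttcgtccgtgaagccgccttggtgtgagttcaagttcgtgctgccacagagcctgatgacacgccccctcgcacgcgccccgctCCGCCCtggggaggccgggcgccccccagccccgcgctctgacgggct
The last 6 bases shown for *Mfap2* lie in an annotated exon, and none of the bases shown for the other genes do. The motifs searched on both strands of the 300 bases were the TATA box TATAAA, the GC box, the AP-1 motif TGANTCA, the palindromic estrogen response element (GGTCA and TGACC with 3 bases between) and the palindromic progesterone response element (AGAACA and TGTTCT with 3 bases between). Of the 32851 promoter entries of the mouse table, 13.6% held TATAAA, 35.7% the GC box, 7.81% the AP-1 motif, 0.07% the estrogen response element and 0.00913% the progesterone response element. Only the GC box was found in the members' entries, in 5 of 8. In the *Fbln5* entry shown it lies at positions -221 and -48 (counted from the start site), and the *Mfap2* and *Fbln1* entries shown hold none of these motifs. The other entry of each of these genes does hold the GC box, at positions -51 and -7 for *Mfap2* and at -11 and 12 for *Fbln1*. Both of those entries overlap annotated exons before the start. A match or its absence describes these letters only.

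*Fbn1* (ENSMUSG00000027204, chr2:125300594-125507993, minus strand) encodes fibrillin-1, the backbone of microfibrils in adult tissue. Its level was 14.6, 6.22, 6.35, 6.30 and 2.25 FPKM in TG1 to TG5 and 38.9, 18.7, 45.4, 16.1 and 19.4 FPKM in WT1 to WT5. The highest HSD17B1TG mouse, TG1, was just below the lowest WT mouse, WT4, and the other HSD17B1TG mice were far below it. The means were 7.14 ± 4.51 and 27.7 ± 13.4 FPKM (SD, n = 5), a WT level 3.88 times the HSD17B1TG level. The log2 fold change was -1.96 with a standard error of 0.47 (adjusted p = 0.0396, edgeR). It was -2.11 without WT4 (adjusted p = 0.0206) and -2.39 without TG1 (adjusted p = 0.0163), while without any 1 of the other 8 mice the adjusted p lay between 0.0527 and 0.0943.

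*Fbn2* (ENSMUSG00000024598, chr18:58008623-58209926, minus strand) encodes fibrillin-2, which is best known from microfibrils of developing tissue. It had the lowest mean level of the members in both groups and was above *Fbln5* in TG3 and WT4, with 4.33, 1.99, 3.06, 1.36 and 1.08 FPKM in TG1 to TG5 and 2.14, 2.15, 1.24, 4.38 and 1.89 FPKM in WT1 to WT5. TG1 and WT4 were the high mice, and the groups overlapped over nearly their whole range. The means of 2.36 ± 1.34 and 2.36 ± 1.19 FPKM gave a log2 fold change of -0.00 with a standard error of 0.42 (adjusted p = 0.996, edgeR). The test does not show that the levels were equal, only that a difference was not detectable beside this spread.

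*Mfap5* (ENSMUSG00000030116, chr6:122505845-122529290, plus strand) encodes a small glycoprotein that binds fibrillin and Notch ligands, and it had the lowest log2 fold change of the members. Its level was 6.10, 13.1, 11.7, 6.15 and 9.13 FPKM in TG1 to TG5 and 66.6, 47.8, 60.4, 19.5 and 72.9 FPKM in WT1 to WT5. WT4 was well below the other WT mice and still above every HSD17B1TG mouse. The means were 9.24 ± 3.18 and 53.5 ± 21.1 FPKM, a WT level 5.79 times the HSD17B1TG level. The log2 fold change was -2.54 with a standard error of 0.36 (adjusted p = 0.0153, edgeR). It was called without any 1 of the 10 mice, with an adjusted p of at most 0.0446, and was -2.75 without WT4 and -2.42 without TG1.

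*Mfap2* (ENSMUSG00000060572, chr4:141010418-141015984, plus strand) encodes the glycoprotein of the same family that is found on most microfibrils. The 5 HSD17B1TG mice had 37.3, 29.8, 24.3, 31.7 and 16.2 FPKM, and the 5 WT mice 67.4, 85.6, 71.5, 34.9 and 77.7 FPKM. TG1 was above WT4, and otherwise every HSD17B1TG mouse was below every WT mouse. The means of 27.9 ± 8.003 and 67.4 ± 19.4 FPKM gave a log2 fold change of -1.28 with a standard error of 0.27 (adjusted p = 0.0299, edgeR). The change was -1.44 without WT4 (adjusted p = 0.00549), -1.41 without TG1 (adjusted p = 0.0200), and the call was also kept without TG3. Without any 1 of the other 7 mice the adjusted p lay between 0.0534 and 0.0724.

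*Mfap4* (ENSMUSG00000042436, chr11:61485431-61488900, plus strand) encodes a fibrinogen-domain protein that binds integrins and elastic fibres. It had the highest mean level of the members in WT uteri, although in WT4 *Fbln1*, *Lox* and *Fbln2* were above it. TG1 to TG5 had 58.0, 48.1, 34.6, 58.4 and 30.02 FPKM, and WT1 to WT5 had 139.6, 271, 145, 36.5 and 149.8 FPKM. WT4 lay within the HSD17B1TG range, while the other WT mice were all above it. The means were 45.8 ± 13.1 and 149 ± 83.3 FPKM, with a log2 fold change of -1.70 and a standard error of 0.43 (adjusted p = 0.0445, edgeR). The change was -1.95 without WT4 (adjusted p = 0.00455) and -1.80 without TG1 (adjusted p = 0.0397), and without any 1 of the other 8 mice the adjusted p lay between 0.0615 and 0.103. Tests with limma on log2(FPKM + 1) and log2(FPKM + 0.1) gave adjusted p-values of 0.0705 and 0.0694 for this gene. An exon of *Mapk7* overlaps *Mfap4* on the other strand, and the strand setting of the counting is not given in the sources used here, so reads of the pair could not be told apart with certainty. On average *Mfap4* had 3600.1 counts in a mouse and *Mapk7* had 612.5.

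**Figure D2:**
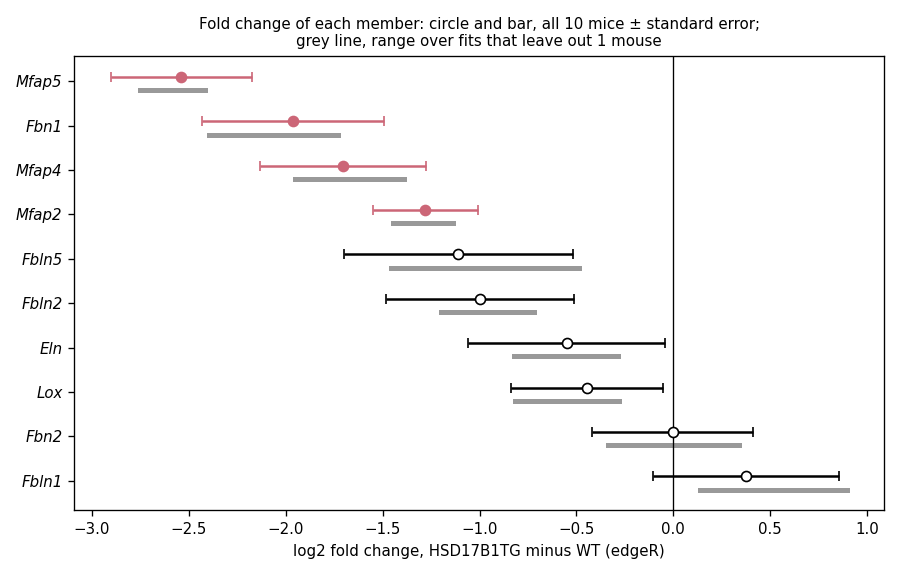
Log2 fold change of each member, HSD17B1TG minus WT (horizontal axis), with its standard error from edgeR over all 10 mice, and in grey the range over the 10 fits that leave out 1 mouse. Filled red circles are the 4 called members, from -2.54 (*Mfap5*) to -1.28 (*Mfap2*), and open circles are the others.

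*Eln* (ENSMUSG00000029675, chr5:134702593-134747323, minus strand) encodes tropoelastin, the core of the fibre. Its level was 25.0, 22.3, 12.9, 10.9 and 2.84 FPKM in TG1 to TG5 and 30.6, 13.4, 9.45, 28.3 and 26.5 FPKM in WT1 to WT5. TG5 was below every WT mouse, and the other HSD17B1TG mice lay within the WT range. The means of 14.8 ± 8.97 and 21.6 ± 9.55 FPKM differed by less than the spread within a group, with a log2 fold change of -0.55 and a standard error of 0.51 (adjusted p = 0.532, edgeR).

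*Lox* (ENSMUSG00000024529, chr18:52516069-52529867, minus strand) encodes lysyl oxidase, the copper enzyme that starts the crosslinking of elastin and collagen. TG1 to TG5 had 65.3, 31.3, 19.1, 36.5 and 18.3 FPKM, and WT1 to WT5 had 57.8, 28.9, 24.4, 66.9 and 54.2 FPKM. TG3 and TG5 were just below the lowest WT mouse, and TG1 was close to the highest. With means of 34.1 ± 19.1 and 46.4 ± 18.7 FPKM the log2 fold change was -0.45 with a standard error of 0.39 (adjusted p = 0.508, edgeR).

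*Fbln5* (ENSMUSG00000021186, chr12:101746565-101819055, minus strand) encodes a fibulin that binds tropoelastin and integrins and is needed for elastic fibre assembly. TG1 to TG5 had 9.34, 4.52, 1.67, 7.12 and 2.32 FPKM, and WT1 to WT5 had 4.88, 9.44, 26.2, 4.07 and 8.97 FPKM. WT3 was far above all other mice, and TG3 and TG5 were below every WT mouse. The means of 4.99 ± 3.23 and 10.7 ± 8.995 FPKM gave a log2 fold change of -1.11 with a standard error of 0.59 (adjusted p = 0.261, edgeR), and the change was -0.49 without WT3.

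*Fbln2* (ENSMUSG00000064080, chr6:91212455-91272540, plus strand) encodes a fibulin of basement membranes and elastic fibres. Its level was 28.5, 24.7, 22.3, 14.7 and 5.69 FPKM in TG1 to TG5 and 67.6, 18.1, 18.1, 60.0 and 27.8 FPKM in WT1 to WT5. WT1 and WT4 were the high mice, and the remaining WT mice lay among the HSD17B1TG mice. The means were 19.2 ± 9.09 and 38.3 ± 23.8 FPKM, and the log2 fold change of -0.998 with a standard error of 0.49 did not pass the test (adjusted p = 0.223, edgeR).

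*Fbln1* (ENSMUSG00000006369, chr15:85205949-85286535, plus strand) encodes a fibulin that binds fibronectin, basement membrane proteins and elastin, and it was the member with a positive fold change. TG1 to TG5 had 54.9, 89.2, 92.4, 77.7 and 88.5 FPKM, and WT1 to WT5 had 34.3, 24.1, 22.7, 89.3 and 139.4 FPKM. The WT mice split into a low set of WT1, WT2 and WT3 and a high pair of WT4 and WT5, and every HSD17B1TG mouse was between the sets or within the high range. The means of 80.5 ± 15.4 and 62.0 ± 51.2 FPKM gave a log2 fold change of 0.37 with a standard error of 0.48 (adjusted p = 0.666, edgeR). The change was 0.90 without WT5 and 0.14 without WT3, and between 0.73 and 1.0 in the limma fits (adjusted p between 0.152 and 0.347).

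The order of the genes by level was *Mfap4*, *Mfap2*, *Fbln1*, *Mfap5*, *Lox*, *Fbln2*, *Fbn1*, *Eln*, *Fbln5* and *Fbn2* by mean FPKM in WT uteri. In HSD17B1TG uteri it was *Fbln1*, *Mfap4*, *Lox*, *Mfap2*, *Fbln2*, *Eln*, *Mfap5*, *Fbn1*, *Fbln5* and *Fbn2*. Most neighbours in these orders were within the spread between mice. In WT, *Mfap4* was above *Mfap2* in 5 of 5 mice (mean log2 difference 0.95 ± 0.57), and no other neighbours kept their order in all WT mice. In HSD17B1TG, *Mfap2* was above *Fbln2* (0.68 ± 0.60) and *Fbln2* above *Eln* (0.51 ± 0.37) in 5 of 5 mice, and no other neighbours did so.

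The make-up of the summed transcripts can be read from the share of each gene. *Fbln1* made up 34.5% ± 11.9 (SD, n = 5) of the summed FPKM in HSD17B1TG and 13.1% ± 10.4 in WT, with ranges of 18.1% to 50.2% and 4.64% to 24.8% that overlapped. *Mfap5* made up 3.92% ± 1.55 and 10.9% ± 3.58, with every HSD17B1TG mouse (2.01% to 5.18%) below every WT mouse (5.43% to 14.2%). The share of *Mfap4* was 18.5% ± 3.05 in HSD17B1TG and 29.97% ± 15.2 in WT, where it ranged from 10.1% in WT4 to 52.2% in WT2. That of *Fbn1* was 2.73% ± 1.29 and 5.95% ± 3.15. The shares of a mouse sum to the whole and are not independent of each other, and they were not tested.

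**Figure D3:**
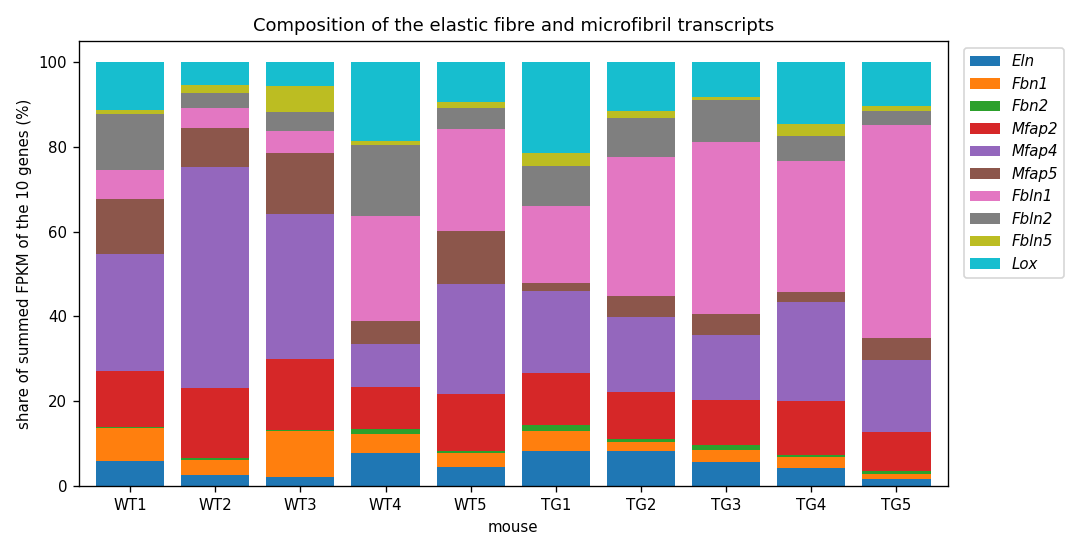
Share of each gene (percent, vertical axis from 0) in the summed FPKM of the 10 genes, 1 stacked bar for each mouse. *Fbln1* (pink) takes 18.1% to 50.2% in the HSD17B1TG mice and 4.64% to 24.8% in the WT mice, and *Mfap5* (brown) is narrower in every HSD17B1TG mouse than in any WT mouse.

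Ratios of related members within a mouse compare genes in the same library, so apart from the added constant they do not depend on how libraries are scaled. They were taken as log2 ratios of FPKM + 0.1 and compared by exact permutation of the genotype labels (two-sided, 252 assignments), with Benjamini-Hochberg adjustment for the 4 ratios. The smallest p this design can give is 0.00794. The ratio of *Fbn2* to *Fbn1* was -1.73, -1.60, -1.03, -2.14 and -0.99 in TG1 to TG5 and -4.12, -3.06, -5.08, -1.86 and -3.29 in WT1 to WT5. WT4 lay within the HSD17B1TG range, and the other WT mice were below it. The means of -1.497 ± 0.49 and -3.48 ± 1.21 (SD, n = 5) differed by 1.99 (exact permutation p = 0.0159, adjusted p = 0.0476). The ratio of *Mfap5* to *Mfap2* was -2.59, -1.18, -1.05, -2.35 and -0.82 in TG1 to TG5 and -0.02, -0.84, -0.24, -0.84 and -0.09 in WT1 to WT5. TG5 reached the low WT mice, WT2 and WT4, and the other HSD17B1TG mice were below all WT mice. The means of -1.60 ± 0.81 and -0.41 ± 0.40 differed by -1.19 (exact permutation p = 0.0238, adjusted p = 0.0476). Without TG1, WT1, WT3 or WT5 the adjusted p of both ratios was above 0.05, between 0.0635 and 0.111, in a design with fewer assignments. For *Fbln5* to *Eln* the means were -1.49 ± 1.10 and -1.19 ± 1.75 and differed by -0.30 (exact permutation p = 0.786, adjusted p = 0.786). For *Lox* to *Eln* they were 1.36 ± 0.89 and 1.13 ± 0.17 and differed by 0.23 (exact permutation p = 0.635, adjusted p = 0.786). In this last ratio the WT mice lay close together, from 0.92 to 1.36, while the HSD17B1TG mice ran from 0.49 in TG2 to 2.65 in TG5.

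**Figure D4:**
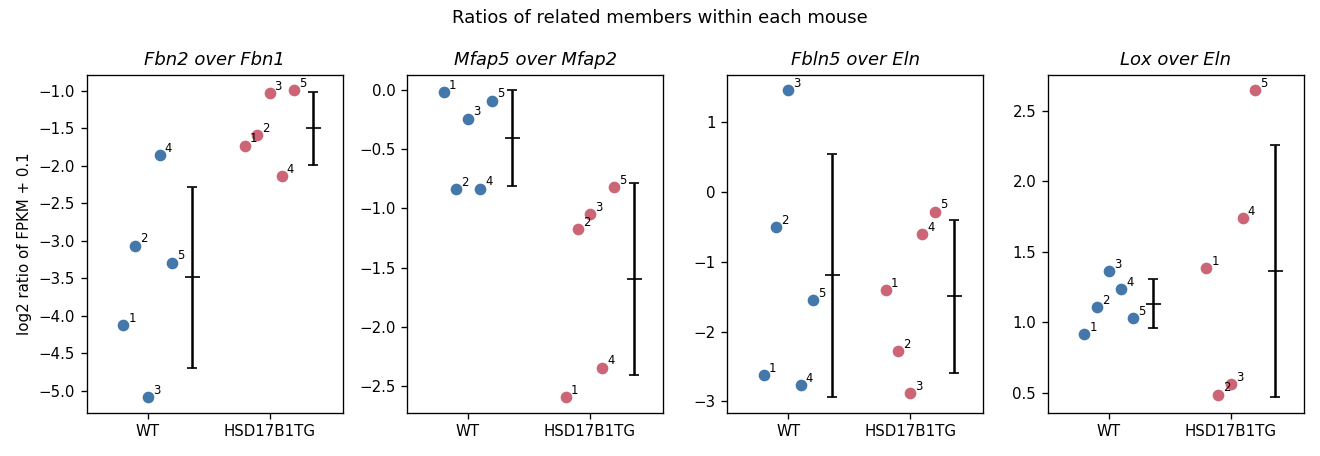
Log2 ratio of FPKM + 0.1 of 4 pairs of members in each WT (blue) and HSD17B1TG (red) mouse, with mean and SD in black and axes that do not start at 0. The HSD17B1TG mice are higher for *Fbn2* over *Fbn1* except for the overlap with WT4, and lower for *Mfap5* over *Mfap2* except for TG5.

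Several markers of stroma, the fibroblast-like cells that make much of this matrix, were lower as well. Of 11 stromal markers, 6 were lower in HSD17B1TG and 0 higher, with a median log2 fold change of -1.99. The summed FPKM of the list ranged from 301 to 1215 in HSD17B1TG and from 828 to 1255 in WT, and no marker of the list was at 0. *Pdgfra*, a receptor that marks fibroblasts, had 10.8 ± 4.57 FPKM in HSD17B1TG and 42.9 ± 18.5 FPKM in WT (log2 fold change -1.99, adjusted p = 0.0219, edgeR). *Hoxa10*, a transcription factor of uterine stroma, had 30.4 ± 10.7 and 132.6 ± 73.4 FPKM (log2 fold change -2.14, adjusted p = 0.0268, edgeR). The most abundant stromal markers, the small proteoglycans *Dcn* and *Lum* (named after their values were seen), were not called. *Dcn* had 227 ± 128 and 242 ± 106 FPKM (log2 fold change -0.10, adjusted p = 0.915, edgeR), and *Lum* 267 ± 201 and 187 ± 66.9 FPKM (log2 fold change 0.51, adjusted p = 0.518, edgeR). The hormone receptors *Esr1* (33.9 ± 4.83 and 34.9 ± 6.50 FPKM, adjusted p = 0.889, edgeR) and *Pgr* (29.8 ± 17.4 and 48.2 ± 18.1 FPKM, adjusted p = 0.298, edgeR) did not pass the test. The 11 smooth muscle markers all had positive fold changes with a median of 0.60, none was called with edgeR, and their summed FPKM ranged from 1285 to 10035 in HSD17B1TG and from 603 to 7419 in WT. *Acta2*, smooth muscle actin, had 1467 ± 1209 and 911 ± 981 FPKM (adjusted p = 0.602, edgeR). With edgeR 0 of 10 markers were called for endothelium, 0 of 7 for mural cells, 0 of 9 for epithelium, 0 of 5 for mesothelium, 0 of 1 tested for adipocytes and 0 of 2 tested for oviduct. At an unadjusted p-value under 0.05, 6 epithelial and 3 mesothelial markers and the adipocyte marker were higher, 1 endothelial marker was higher and 4 were lower, 1 mural marker was lower, and no smooth muscle or oviduct marker passed that level. Of 3 ovary markers tested 1 was lower, of 7 leucocyte markers tested 2 were higher and 1 lower, and of 4 uterine identity genes 2 were lower, which are also on the stromal list.

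Levels of the members were also set against the marker lists in the same mouse. Without a reference, the difference of the group means in log2 CPM was -2.47 for *Mfap5*, -2.06 for *Fbn1*, -1.499 for *Mfap4* and -1.27 for *Mfap2*. After the mean of the 11 stromal markers was subtracted in each mouse, it was -1.13 for *Mfap5* and -0.72 for *Fbn1*, and the groups then overlapped, with 3 of 5 HSD17B1TG mice below every WT mouse for *Mfap5* and 2 of 5 for *Fbn1*. It was then -0.15 for *Mfap4* and 0.08 for *Mfap2*. The sign of *Mfap2*, *Eln* (0.60), *Fbln2* (0.38), *Fbln5* (0.29), *Lox* (0.84) and *Fbn2* (1.28) was positive against the stromal markers and negative without them. The subtraction shifted every member's difference by the same amount, since the stromal mean itself was 6.27 in HSD17B1TG and 7.61 in WT. These changes of sign therefore follow from the reference and are not results about single members. *Fbln1* was higher by 2.09 on this scale, with 3 of 5 HSD17B1TG mice above every WT mouse. Against the mean of the 11 smooth muscle markers all 10 members were lower, from -3.32 for *Mfap5* to -0.11 for *Fbln1*. This reference, 9.08 in HSD17B1TG and 8.22 in WT, also shifted every member by the same amount. The groups overlapped for each member. *Fbn1*, *Fbln2* and *Lox* had 4 of 5 HSD17B1TG mice below every WT mouse, *Mfap5* had 2, and *Mfap4* and *Fbln5* had 0. These differences were not tested, and the part of the stromal markers in the lower levels of the called members was not tested.

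**Figure D5:**
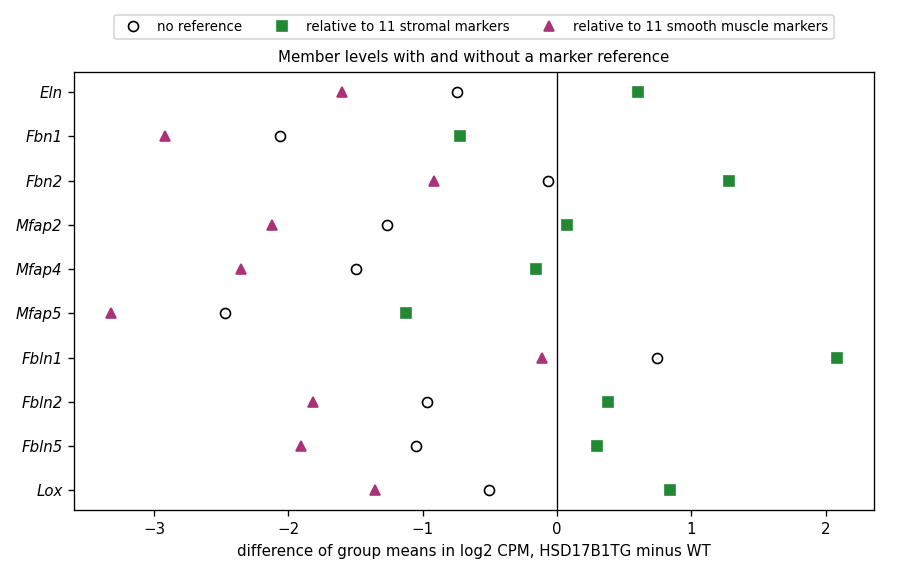
Difference of the group means in log2 CPM, HSD17B1TG minus WT (horizontal axis), for each member without a reference (open circles), relative to 11 stromal markers (green squares) and relative to 11 smooth muscle markers (purple triangles). Each reference shifts all members by the same amount. Relative to the stromal markers *Mfap5* and *Fbn1* have the lowest differences of means, -1.13 and -0.72, with groups that overlap, and *Fbln1* is highest at 2.09.

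Other genes of elastic fibre formation and turnover were taken from 5 lists with 49 genes, of which 45 were tested. In all, 4 were called higher and 0 lower with edgeR, against 2.16% and 2.08% of all genes. At an unadjusted p-value under 0.05, 9 of the 45 were higher and 6 lower, beside 14.7% and 11.4% of all genes. DESeq2 called 7 higher and 0 lower, beside 4.17% and 3.07% of all genes. The number of higher calls depended on single mice, being 1 without TG2, TG4, TG5, WT2, WT3 or WT5, 2 without WT1 and 6 without WT4, and without TG1 there were also 5 lower calls. Genes for crosslinking and processing of elastin and fibrillin had no called member among 8 tested, 7 with a negative and 1 with a positive log2 fold change, and a median of -0.76. The smallest p-values of this list were those of the lysyl oxidase homologue *Loxl2* (14.96 ± 6.60 FPKM in HSD17B1TG and 26.6 ± 6.95 in WT, adjusted p = 0.110, edgeR) and of *Pcolce*, an enhancer of procollagen processing (11.3 ± 6.57 and 26.0 ± 16.4 FPKM, adjusted p = 0.167, edgeR). The 8 ADAMTS and ADAMTS-like genes of microfibrils had a median of -0.54, with 6 negative and 2 positive. *Adamts17*, a protease linked to fibrillin, was between 0.00828 and 0.0622 FPKM in HSD17B1TG and between 0.131 and 1.29 FPKM in WT, so the groups did not overlap. Its adjusted p was 0.0177 (edgeR), and it was not called because both means were under 1 FPKM. *Thsd4*, whose product promotes fibrillin assembly, had 5.99 ± 1.09 and 2.15 ± 1.40 FPKM (log2 fold change 1.48, adjusted p = 0.0548, edgeR).

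Among 9 other fibulin and emilin genes tested, 1 was called, and the median was -0.28 with 6 negative and 3 positive. The called gene was *Fbln7*, a short fibulin that cells can adhere to. It had 8.41, 15.6, 9.99, 12.8 and 24.7 FPKM in TG1 to TG5 and 8.81, 2.51, 2.13, 1.58 and 2.50 FPKM in WT1 to WT5. WT1 was above TG1, and the other WT mice were below all HSD17B1TG mice. Its log2 fold change was 2.03 with a standard error of 0.49 (adjusted p = 0.0412, edgeR). The second gene of this list by p-value, the multimerin *Mmrn1*, had 6.37 ± 3.83 and 1.70 ± 1.58 FPKM (adjusted p = 0.103, edgeR).

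Of 7 latent TGF-beta binding proteins and TGF-beta ligands, 1 was called, and the median was -0.14 with 4 negative and 3 positive. This was *Ltbp2*, which binds fibrillin microfibrils without carrying latent TGF-beta. Its level was 1.38, 3.24, 6.92, 7.02 and 11.4 FPKM in TG1 to TG5 and 0.661, 0.495, 0.197, 0.396 and 0.424 FPKM in WT1 to WT5. Every HSD17B1TG mouse was above every WT mouse, as for 4.04% of all genes. Its log2 fold change of 3.77 with a standard error of 0.54 (adjusted p = 0.0159, edgeR) was opposite in sign to those of the called members. The ligand gene *Tgfb2* had 4.66 ± 2.52 and 9.14 ± 3.89 FPKM (adjusted p = 0.134, edgeR).

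Elastin-degrading proteases and their inhibitors had 2 genes called higher of 13 tested, with 9 positive and 4 negative fold changes and a median of 0.43. Cathepsin L (*Ctsl*), a lysosomal protease, had 176 ± 119 FPKM in HSD17B1TG and 47.5 ± 21.4 FPKM in WT (log2 fold change 1.89 with a standard error of 0.45, adjusted p = 0.0396, edgeR). TG1, at 67.6 FPKM, was below WT4, at 83.2 FPKM, and TG5 reached 380.5 FPKM. Cathepsin S (*Ctss*), a protease of antigen-presenting cells with strong elastase activity, had 77.4 ± 31.2 and 29.1 ± 10.1 FPKM (log2 fold change 1.40 with a standard error of 0.32, adjusted p = 0.0351, edgeR). TG1, at 37.5 FPKM, was below WT2, at 44.5 FPKM. The macrophage elastase *Mmp12* was between 0.215 and 0.746 FPKM in HSD17B1TG and between 0 and 0.138 FPKM in WT, so the groups did not overlap at a low level (adjusted p = 0.0328, edgeR), and it stayed under the level of 1 FPKM. The summed FPKM of the leucocyte markers ranged from 161 to 254 in HSD17B1TG and from 111 to 251 in WT, with a median log2 fold change of -0.01 over members that went both ways. The myeloid markers *Cd68* (54.1 ± 23.2 and 18.1 ± 4.49 FPKM, log2 fold change 1.58, adjusted p = 0.0269, edgeR) and *Itgam* (30.7 ± 15.4 and 2.12 ± 2.93 FPKM, log2 fold change 3.86, adjusted p = 0.0279, edgeR) were higher, the latter in every HSD17B1TG mouse than in any WT mouse. The natural killer cell marker *Ncr1* was lower (1.08 ± 0.387 and 6.97 ± 4.39 FPKM, log2 fold change -2.70, adjusted p = 0.0268, edgeR), while the other 4 tested were not called, with log2 fold changes of -1.08 for *Ptprc*, a gene of all leucocytes (adjusted p = 0.0558, edgeR), and of -0.41 for *Lyz2*, -0.01 for *Adgre1* and 0.46 for *Csf1r*, genes of myeloid cells. These markers were named after their values were seen, and their part in the protease levels was not tested.

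The genes most like *Eln* and *Fbn1* across the 10 mice were named by the highest Pearson r of log2 CPM, as a description with no test. The points share the 10 libraries and their cell make-up. For *Eln* these were *Atg9a*, *Alas2*, *Mtcp1*, *BC017158* and *Gm48949*, with r from 0.96 to 0.93. Of the members, *Fbln2* was the closest to *Eln* at rank 8 (r = 0.92, rho = 0.93, and r = 0.91 after removal of the group means), followed by *Lox* at rank 207 (r = 0.81, rho = 0.84). For *Fbn1* they were *Notch4*, *Plod1*, *Tmem17*, *Ccdc102a* and *Impdh1*, with r from 0.98 to 0.96. *Mfap2* was the closest member to *Fbn1* at rank 233 (r = 0.88, rho = 0.88), and its r fell to 0.65 after removal of the group means. For *Mfap5* and *Fbn1* the same step took r from 0.76 to 0.11. *Fbln1* had an r of -0.62 with *Fbn1*.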

How the data were processed

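Uterine RNA of 5 HSD17B1TG and 5 WT mice was sequenced by the authors as paired-end reads of 150 bp and mapped with HISAT2 2.0.5 (version from the submitters' processing notes) with the Ensembl 94 annotation of GRCm38. A single table was deposited, with raw counts per mouse for 29268 genes. The same deposited table holds a signal, which is the count divided by the DESeq2 size factor, and FPKM scaled by that size factor and the gene length. Which program counted the reads, and whether it used strand, is not given in the sources used here. Columns and files that hold the authors' own comparison (fold changes, p-values and term enrichment) were not used.

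Groups are the genotypes of the labels, which give no batch or date. The test was that of edgeR 4.0.16 under R 4.3.3 (filterByExpr, TMM, quasi-likelihood test, Benjamini-Hochberg over 16993 genes), with the thresholds of the study's methods. Standard errors were taken from the fold change and its F statistic. Log2 CPM used a prior count of 2. Ratios were tested with a two-sided exact permutation test, written out over all assignments of mice, and rho (Spearman) was computed with SciPy 1.17.1. FPKM were used for levels, and they share the scaling of the size factors.

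The members, set by symbol with no threshold on values, and the other gene lists, written by hand, were all chosen with earlier results of these data known. All members were named, and of the other lists every called gene and the 2 genes with the smallest p. By the same rule markers were described as lists, with *Acta2*, *Pdgfra*, *Hoxa10*, *Esr1* and *Pgr* named. The stromal and leucocyte markers *Dcn*, *Lum*, *Cd68*, *Itgam*, *Ncr1*, *Adgre1*, *Csf1r*, *Ptprc* and *Lyz2* were named after their values were seen. For *Eln* and *Fbn1* the 5 genes with the highest r were named. The subtraction of marker lists and the shares were chosen after the values were seen. Alternatives were DESeq2 1.42.0, limma 3.58.1 (voom, and log2 FPKM), other normalizations, filters and thresholds, and each mouse left out. The scripts were tested on simulated counts. Gene overlaps came from GENCODE M21, which places 28447 of the 29268 genes identically.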

Additional observations from a re-analysis of the deposited data

Results flagged for a closer look

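In 2 of 28 groups of 5 mice examined, 1 mouse was farther from the nearest other mouse than Dixon's 95% critical value allows, and chance flags about 1 in 20 groups. *Fbn2* had 4.38 FPKM in WT4 and between 1.24 and 2.15 FPKM in the other WT mice. *Fbln5* had 26.2 FPKM in WT3 and between 4.07 and 9.44 FPKM in the other WT mice, and its log2 fold change was -0.49 without WT3 against -1.11 with all mice.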

How the results depend on the processing

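Without a mouse, the number of members called lower ranged from 1 to 4. It was 1 without any mouse but TG1, TG3 and WT4. It was 3 with limma on either log2 FPKM scale, where *Mfap4* was lost, and 4 in the other 7 alternatives, while 0 members were called higher in all of these. Over all genes the lower calls numbered 666 with DESeq2, 665 with voom and 228 with limma on log2(FPKM + 1), and 27 to 666 without a mouse. The higher calls numbered 906 with DESeq2, 1083 with voom and 568 at adjusted p alone, and 38 to 888 without a mouse. Of the other elastic fibre genes, 7 were higher with DESeq2 and 1 to 6 without a mouse. Lower ones numbered 2 with voom, 1 at adjusted p alone and 0 to 5 without a mouse.

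The log2 fold change of *Fbn2* was 0.000533 with DESeq2 and 0.00101 with RLE factors, and ran from -0.34 to 0.34 without a mouse. The other 9 members kept their sign in all alternatives. Without a mouse, the difference in log2 ratio ran from 1.59 to 2.39 for *Fbn2* over *Fbn1*, from -1.39 to -0.94 for *Mfap5* over *Mfap2*, from -0.69 to 0.37 for *Fbln5* over *Eln* (positive without TG3 or WT3) and from -0.0876 to 0.45 for *Lox* over *Eln* (negative without TG5). Fewer mice give fewer assignments, and for the rest the cause was not tested. No paired analysis was possible because the labels give no replicate numbers shared between the groups. With 5 mice a group, a difference that did not pass the test may have been too small to detect beside the spread between mice.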
